A study of Ovis aries with 20 samples.

Results

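Steroid hormone synthesis in sheep ovarian follicles was described across both cell layers by 8 genes: STAR, CYP11A1, CYP17A1, CYP19, HSD17B1, CYB5A, FDX1 and POR. They were taken by name from a table of 28524 genes, in which 7 of the 8 had a row, aromatase under the name CYP19. POR was not analysed here. All 7 passed the filter on low values in every comparison.

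The animals were adult sheep whose mothers had received either vehicle (control) or 100 mg testosterone propionate (1.2 mg/kg; prenatal T) by intramuscular injection 2 times per week between days 30 and 90 of gestation. All were 21 months old, and all had received 2 injections of 10 mg prostaglandin F2α 11 days apart, with the ovaries taken 18 hours after the second. Granulosa and theca cells were microdissected from frozen sections of several antral follicles of each animal, pooled by layer and sequenced as total RNA without ribosomal RNA. There were 4 control and 5 prenatal T granulosa libraries and 5 control and 5 prenatal T theca libraries, with 12.7 to 26.0 M reads each, and the granulosa cells of control sheep 139 were not analysed here. Each library is 1 animal, so the p-values below measure the spread between animals, and since each pools follicles, nothing is known of single follicles.

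Ovarian steroids are made from cholesterol by the granulosa and theca layers together. STAR brings cholesterol to the inner mitochondrial membrane, where CYP11A1 cuts its side chain to give pregnenolone with electrons passed on by the ferredoxin FDX1. In theca cells CYP17A1 turns progestins into androgens, with cytochrome b5 (CYB5A) favouring its lyase reaction and POR supplying electrons. Granulosa cells convert the androgens into oestrogens with aromatase (CYP19), and HSD17B1 reduces oestrone to oestradiol. Theca cells respond mainly to luteinising hormone and granulosa cells of growing follicles to follicle-stimulating hormone.

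The layers were checked by marker lists. Without sheep 209, 12 of 15 granulosa markers were called higher in granulosa cells and 0 lower, and 15 of 15 theca markers were called lower (10, 0 and 15 with it). Over all genes tested 31.7% were called higher and 31.0% lower without sheep 209, and 28.6% and 28.0% with it. Both layers held markers of the other: without sheep 209 the summed granulosa markers were 77662 to 214963 in granulosa and 21554 to 45578 in theca libraries, and the summed theca markers 22319 to 88364 and 653886 to 938086. Values are deposited normalized counts, and since no gene lengths were used, levels are compared between samples and not between genes.

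Sheep 209 of the prenatal T group stood apart in both layers. Across genes, which are not independent replicates, Pearson's r between granulosa libraries was 0.96 to 0.98 among the other animals and 0.86 to 0.89 with sheep 209. In theca cells it was 0.97 to 0.98 and 0.90 to 0.92. The granulosa markers AMH and FSHR were at 0 in both of its layers, and IHH also in theca. Its summed epithelial markers were 99525 in granulosa and 24454 in theca, against at most 3536 and 781 elsewhere, and its summed immune markers 14874 and 18515 against at most 2199 and 2249. In this animal CYP11A1, CYP17A1 and CYP19 had no read in either layer, where 3 reads would be a value of 3.45 in granulosa and 3.80 in theca. The tests of the members are therefore given with and without sheep 209. Since values of the members were part of what set this animal apart, member results without sheep 209 are not independent of that choice. Ratios between layers, levels in the other layer and correlations over animals are given without sheep 209. In these bulk libraries fewer cells of a type and less RNA per cell cannot be told apart.

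The 7 genes divided between the layers: STAR, CYP11A1, FDX1 and CYP17A1 were higher in theca cells, and CYB5A, CYP19 and HSD17B1 higher in granulosa cells. All 7 were called by limma with the animal as a block (Benjamini-Hochberg adjusted p under 0.05 over 16269 genes), 3 higher and 4 lower in granulosa cells. The background is high, since 56.6% of all genes tested were called, 28.6% higher and 28.0% lower, and without sheep 209 62.7% were (31.7% higher, 31.0% lower), again with 7 of the 7 members. The members' count is read against that background, and the description below turns on the levels and the size of each difference. Across the 8 animals other than sheep 209 with both layers, 3 members were higher in granulosa cells in every animal (23.4% of genes tested) and 3 lower in every animal (22.5%).

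**Figure D1:**
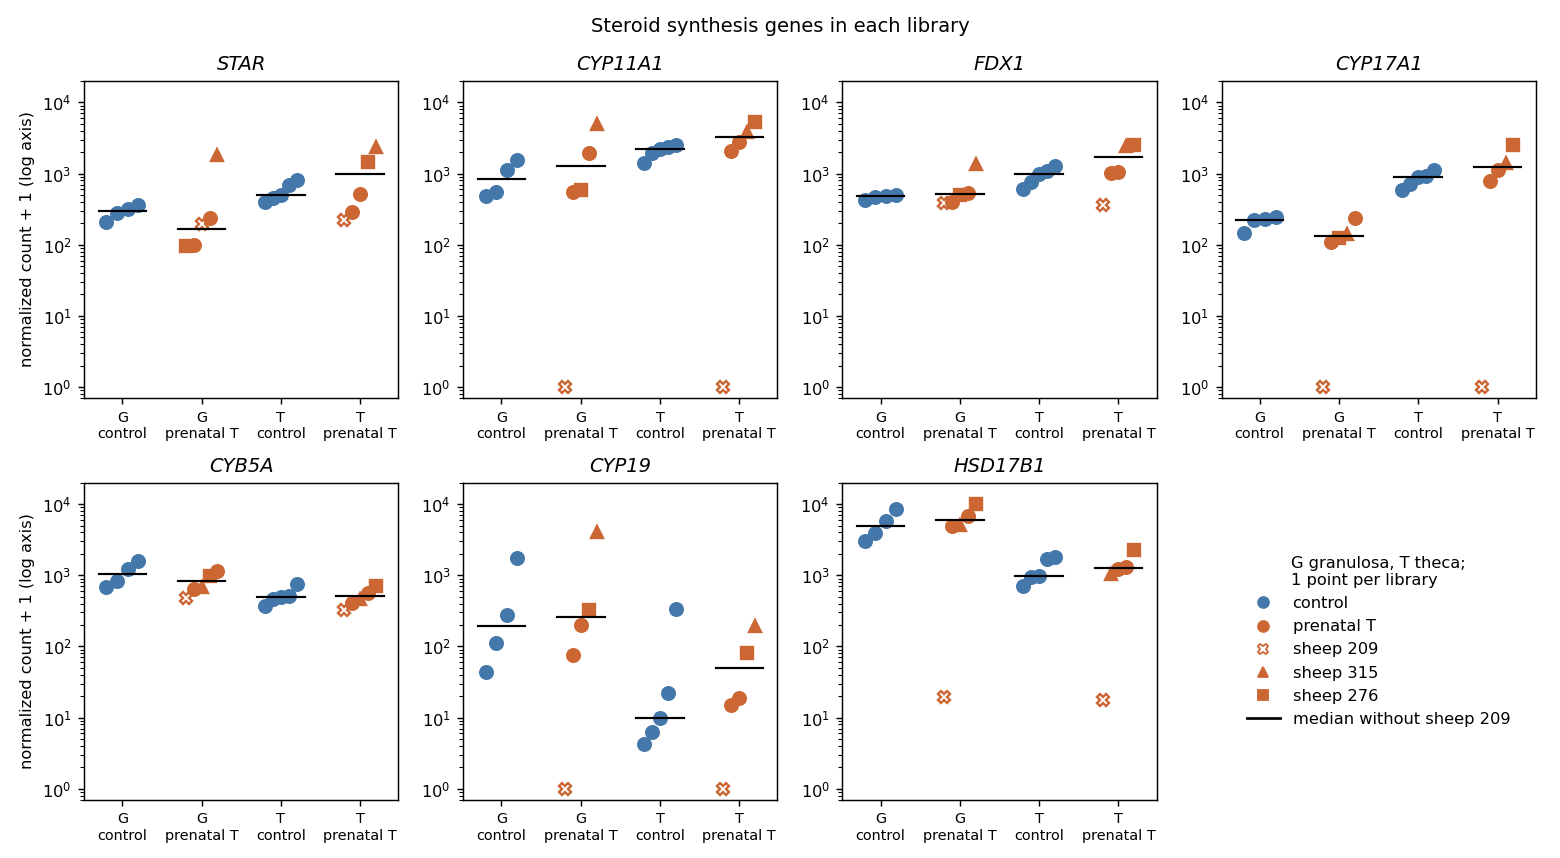
Normalized count plus 1 (log axis) of the 7 genes in each library, by layer and treatment, with 1 point per library and a bar at the group median without sheep 209. The open crosses of sheep 209 lie at 0 reads for CYP11A1, CYP17A1 and CYP19, and the granulosa library of sheep 315 is highest for STAR, CYP11A1, FDX1 and CYP19.

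STAR, the cholesterol importer, was higher in theca cells. In control animals the granulosa values were 363, 319, 209 and 279 (sheep 244, 246, 268 and 224), and the theca values of the same sheep 454, 493, 688 and 805, with 399 in sheep 139. In prenatal T animals (sheep 209, 210, 230, 276 and 315) they were 197, 234, 98.9, 95.1 and 1853 in granulosa and 225, 515, 288, 1465 and 2374 in theca. The theca library was higher than the granulosa library of the same animal throughout, and sheep 315 had the highest value in each layer. The theca level exceeded the granulosa level by 1.25 to 15.4 times (median 2.55) in the 8 animals without sheep 209. The log2 difference, granulosa minus theca, was -1.39 ± 0.32 (SE, adjusted p = 0.00254, limma), and -1.26 ± 0.33 with sheep 209 (adjusted p = 0.0066).

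CYP11A1, the side-chain cleavage enzyme, was also higher in theca cells, with 1 animal going the other way. Control granulosa values were 1576, 1114, 478 and 554, and theca values 2192, 2489, 2394 and 1922, with 1421 in sheep 139. Prenatal T values were 0, 1950, 558, 591 and 5014 in granulosa and 0, 2810, 2070, 5356 and 3781 in theca. Sheep 315 was the exception to the order, with 1.33 times as much in granulosa as in theca, while 7 of the 8 animals had less. The log2 difference was -1.37 ± 0.32 without sheep 209 (SE, adjusted p = 0.00265, limma) and -1.22 ± 0.33 with it (adjusted p = 0.00849). With all animals and the animal as a random in place of a fixed block, the call was lost (adjusted p = 0.204).

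Its electron donor FDX1 was the most even of the 7 within control granulosa cells. The values there were 426, 491, 468 and 495, and in theca 751, 1279, 1076 and 985, with 606 in sheep 139. In prenatal T animals they were 388, 392, 541, 493 and 1376 in granulosa and 364, 1045, 1033, 2541 and 2425 in theca. Sheep 315 lay far above the other granulosa libraries, and only sheep 209 had no excess in theca. FDX1 was higher in theca by 1.76 to 5.16 times in the other 8 animals (log2 difference -1.24 ± 0.15, SE, adjusted p = 1.58e-05, limma), and the difference was -1.09 ± 0.19 with sheep 209 (adjusted p = 0.000473).

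CYP17A1, the enzyme of androgen synthesis, had the largest difference among the genes higher in theca. Control granulosa values were 248, 220, 229 and 143, against theca values of 702, 924, 1112 and 901, with 585 in sheep 139. Prenatal T values were 0, 109, 233, 123 and 142 in granulosa and 0, 1105, 795, 2523 and 1404 in theca. Without sheep 209 every granulosa library lay below every theca library, as was the case for 11.0% of all genes tested. The theca level was 2.83 to 20.6 times the granulosa level of the same animal (median 5.57), and the log2 difference was -2.65 ± 0.27 (SE, adjusted p = 4.2e-06, limma), against -2.36 ± 0.36 with sheep 209 (adjusted p = 0.000199).

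The table holds a second entry, CYP17, which the RefSeq gene table gives as another name of CYP17A1, so reads may have been divided between the entries and either level is uncertain. CYP17 ran from 26.9 to 83.8 in granulosa and from 177 to 1007 in theca without sheep 209, with 0 in both layers of that animal. Adding its reads to CYP17A1 gave a log2 difference between layers of -2.67 without sheep 209, where CYP17A1 alone had -2.65.

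CYB5A, the b5 partner of CYP17A1, was present in both layers and, unlike CYP17A1, higher in granulosa cells. Control values were 678, 1577, 1236 and 842 in granulosa and 468, 758, 504 and 495 in theca, with 373 in sheep 139. Prenatal T values were 482, 649, 1165, 991 and 694 in granulosa and 325, 403, 561, 696 and 466 in theca. The granulosa library was higher in each animal, including sheep 209, by a narrow ratio of 1.42 to 2.45 times in the other 8. The log2 difference was 0.81 ± 0.09 without sheep 209 (SE, adjusted p = 1.14e-05, limma) and 0.78 ± 0.09 with it (adjusted p = 2.84e-05). CYB5A thus differed from CYP17A1 in direction in all 8 of these animals.

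Aromatase, CYP19, had the largest difference between layers and the largest spread between animals. Control granulosa values were 1767, 43.4, 278 and 109, and theca values 336, 3.25, 8.73 and 21.5, with 5.29 in sheep 139. Prenatal T values were 0, 75.4, 202, 320 and 4069 in granulosa and 0, 13.9, 17.8, 78.8 and 191 in theca. Sheep 315 and sheep 244 were the highest in granulosa and in theca alike, though in the opposite order. Among granulosa libraries other than that of sheep 209 the highest was 93.8 times the lowest, where that ratio was at most 19.5 for the other 6 genes. Because of this spread the layers overlapped, although the granulosa library was 4.06 to 31.8 times the theca library of the same animal (median 8.39). The ratio of 31.8 was that of sheep 268, with 10 theca reads, and sheep 246 (13.4) had 3 theca reads. The log2 difference was 3.14 ± 0.31 without sheep 209 (SE, adjusted p = 3.54e-06, limma), and 2.79 ± 0.42 with it (adjusted p = 0.000187).

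HSD17B1, which makes oestradiol from oestrone, was higher in granulosa cells without overlap in all animals but sheep 209. Control values were 3983, 2988, 8530 and 5839 in granulosa and 708, 939, 1815 and 1715 in theca, with 984 in sheep 139. Prenatal T values were 18.4, 4915, 6844, 10008 and 5115 in granulosa and 16.4, 1291, 1229, 2290 and 1027 in theca. Apart from sheep 209, every granulosa library was above every theca library, which held for 5.74% of all genes tested. The ratio of granulosa to theca lay between 3.18 and 5.63 in the 8 animals (log2 difference 2.13 ± 0.09, SE, adjusted p = 1.21e-08, limma). With sheep 209 it was 1.91 ± 0.21 (adjusted p = 1.67e-05).

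**Figure D2:**
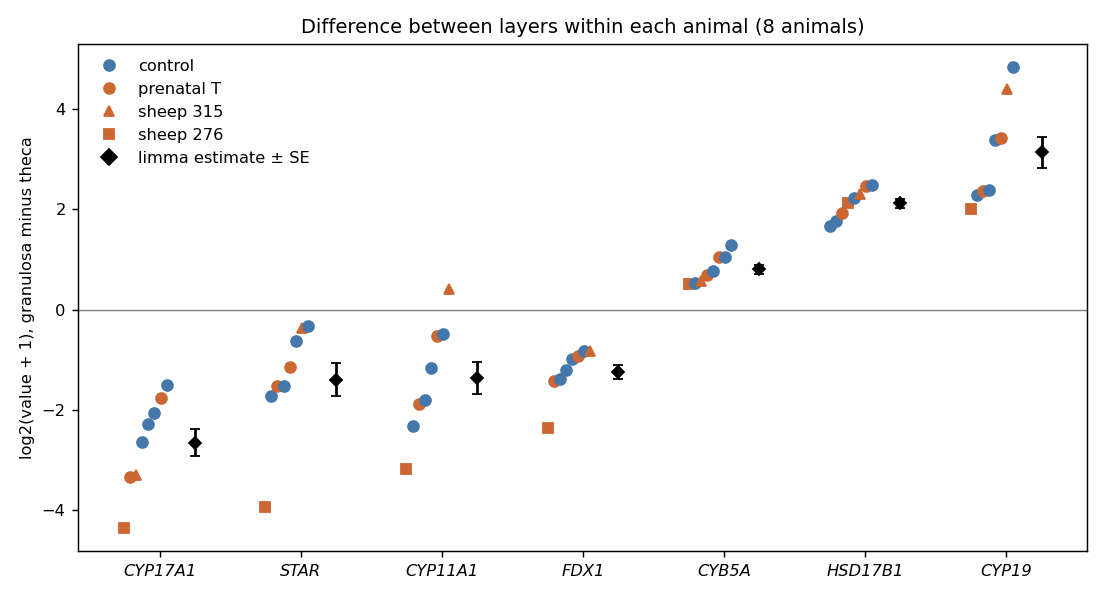
Difference of log2(value + 1), granulosa minus theca, within each of the 8 animals other than sheep 209 that had both layers, with the limma estimate ± SE as a black diamond. CYP17A1, STAR and FDX1 are below 0 and CYB5A, HSD17B1 and CYP19 above 0 in all 8 animals, CYP11A1 is above 0 in sheep 315 alone, and sheep 276 has the lowest value for 6 of the 7 genes.

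Since each dissected layer held markers of the other, the level of each gene in its lower layer was set beside theirs, as a percentage of the level in the same animal's other layer (median of the 8 animals). The 15 theca markers reached 2.80% (ACTA2) to 30.5% (PTCH1) of their theca level in granulosa cells. CYP17A1 reached 18.3%, above 12 of the markers and below 3, of which INSL3, a hormone of theca cells, was at 19.0%. FDX1 at 46.9%, STAR at 40.0% and CYP11A1 at 36.8% were above all 15 markers. Their ranges over animals were wide, 6.49% to 79.9% for STAR and 11.0% to 133% for CYP11A1. The range of STAR overlapped those of all markers but ACTA2, and that of CYP11A1 those of all but ACTA2, COL1A1 and COL1A2.

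In theca cells the 15 granulosa markers reached 9.76% (IHH) to 112% (DHH, with a mean value of 23.3) of their granulosa level. CYP19 was at 13.6%, with 14 of the 15 markers higher and only IHH lower. HSD17B1 was at 22.1%, in the middle of the markers (8 lower, 7 higher), and CYB5A at 60.5% was above 11 of them. The markers above CYB5A were DHH, GATM (108%, mean value 517), ESR2 (82.5%, 236) and FOXL2 (67.6%, 6488). Since these separated the layers less than the other markers did, the ranks of CYB5A and HSD17B1 are of limited meaning. No gene's level was corrected for cells of the other layer, and their part in the lower-layer values was not tested.

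**Figure D3:**
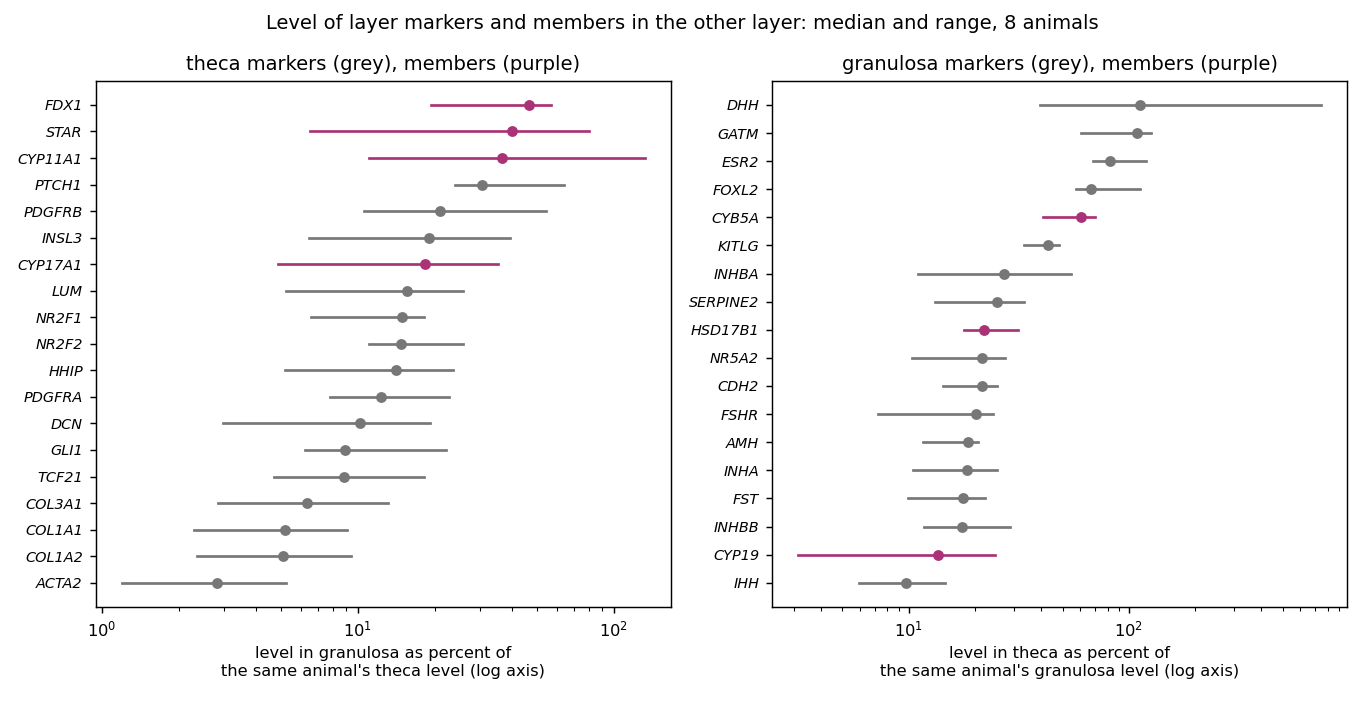
Level in the other layer as a percentage of the level in the own layer of the same animal (log axis), median and range over the 8 animals, for the layer markers in grey and the steroid synthesis genes in purple. By their medians FDX1, STAR and CYP11A1 lie above all 15 theca markers and CYP17A1 among them, and CYP19 lies below all granulosa markers but IHH.

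For prenatal T against control, none of the 7 genes was called in granulosa or theca cells, with or without sheep 209. The background was the same, since limma called 0 of 14724 genes in granulosa and 0 of 15492 in theca cells (0% in each). At an unadjusted p under 0.05 there were 622 genes in granulosa and 1192 in theca cells. On recovered reads edgeR called 0 genes in both (835 and 1561 unadjusted) and DESeq2 16 and 7, none of them one of the 7. Without sheep 209 limma again called 0 in each layer (1013 and 1854 unadjusted), and DESeq2 32 and 58.

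In theca cells the direction depended on sheep 209. With all animals, 3 of the 7 genes were above 0 on the log2 scale, prenatal T minus control (median -0.09, against 0.00 over all genes tested). CYP11A1 was at -1.65 ± 2.04 (SE), CYP17A1 at -1.39 ± 1.82 and FDX1 at 0.40 ± 0.48 by limma, while edgeR and DESeq2 put CYP11A1 (0.43 by both) and CYP17A1 (0.46 by both) above 0.

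Without sheep 209 all 7 were above 0 in theca cells (median 0.69, against -0.01 over all genes). CYP11A1 was at 0.69 ± 0.25 without it (SE, 95% interval 0.13 to 1.25), unadjusted p 0.0206 and adjusted p = 0.381 by limma. FDX1 was 0.82 ± 0.32 (0.12 to 1.52, unadjusted p 0.0248 and adjusted p = 0.385), and CYP17A1 0.69 ± 0.30 (0.03 to 1.34, unadjusted p 0.0407 and adjusted p = 0.402), by the same test. These are folds of 1.61, 1.77 and 1.61, none of which passed the correction. Over all genes tested there, 1854 of 15304 had an unadjusted p under 0.05 by limma. The groups overlapped: CYP11A1 ran from 2070 to 5356 in the 4 prenatal T animals other than sheep 209 and from 1421 to 2489 in controls.

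Sheep 276 had the highest theca value of the 9 animals for CYP11A1, CYP17A1, FDX1 and HSD17B1, and sheep 315 that of STAR. Without sheep 209 and 315, a choice made after seeing the data, the differences were 0.62 for CYP11A1, 0.66 for CYP17A1 and 0.62 for FDX1, with unadjusted p of 0.0514, 0.0745 and 0.0794 by limma. The others were 0.13 for STAR, 0.63 for CYP19, 0.41 for HSD17B1 and 0.095 for CYB5A. That choice kept sheep 276, the highest for CYP11A1, CYP17A1 and FDX1. Sheep 276 was not left out together with sheep 209, so dependence on it without sheep 209 was not tested. The summed granulosa markers in theca libraries were 21554 to 37830 in controls and 23853 to 45578 in prenatal T animals, highest in sheep 276. The summed theca markers were 702973 to 938086 in controls and 653886 to 759732 in prenatal T animals. Whether the cell make-up had a part in these values was not tested.

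The other 4 genes had intervals in theca cells that included 0 without sheep 209. STAR was 0.63 ± 0.52 (SE; 95% interval -0.52 to 1.78), HSD17B1 0.27 ± 0.31 (-0.40 to 0.94) and CYB5A 0.04 ± 0.21 (-0.42 to 0.51). For CYB5A that interval allows at most a modest change either way. CYP19, at 1.33 ± 1.21 (-1.35 to 4.0), was the least precise. With sheep 209 these 4 were at 0.25 ± 0.60 for STAR, -0.99 ± 1.13 for HSD17B1, -0.09 ± 0.23 for CYB5A and 0.22 ± 1.51 for CYP19, so HSD17B1 and CYB5A changed sign with that 1 animal.

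In granulosa cells 4 of the 7 genes were above 0 without sheep 209 (median 0.38, against -0.01 over all genes), and 1 of 7 with it (median -0.95). CYP17A1 had the lowest value, -0.50 ± 0.28 (95% interval -1.13 to 0.12; adjusted p = 0.738, limma). CYB5A was at -0.27 ± 0.29, FDX1 at 0.39 ± 0.34, HSD17B1 at 0.38 ± 0.34, CYP11A1 at 0.70 ± 0.70 and CYP19 at 0.77 ± 1.36, and each of these intervals included 0. With sheep 209 CYP11A1 was at -1.38 ± 2.17, CYP19 at -0.95 ± 2.13 and HSD17B1 at -1.29 ± 1.69, the opposite sign in each case. CYP17A1 was then at -1.94 ± 1.46, CYB5A at -0.44 ± 0.32, FDX1 at 0.26 ± 0.35 and STAR at -0.25 ± 0.79.

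STAR in granulosa cells depended on sheep 315, as did other members given below. The 3 prenatal T animals other than sheep 209 and 315 had 234, 98.9 and 95.1, against 209 to 363 in the controls, while sheep 315 had 1853. The log2 difference was -0.18 ± 0.83 without sheep 209, and -1.13 ± 0.35 when sheep 315 was left out too, where the unadjusted p was 0.0104 and the adjusted p 0.731 by limma. With sheep 315 kept, edgeR and DESeq2 put STAR above 0, at 1.02 and 1.01 without sheep 209.

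Sheep 315 was the highest of the 8 granulosa libraries for STAR, CYP11A1, FDX1 and CYP19 together. Its HSD17B1 value of 5115 and CYB5A value of 694 lay within the range of the others, as did its CYP17A1 value of 142. The summed luteal markers were 58921 in its granulosa library, against 3631 to 49985 in the other 7, and its summed granulosa markers of 214963 were also the highest. Their part in its values was not tested. With sheep 315 left out as well as sheep 209, the prenatal T differences in granulosa cells were 0.065 for CYP11A1, 0.0058 for FDX1 and -0.38 for CYP19. With sheep 315 kept they were 0.70, 0.39 and 0.77. HSD17B1, CYB5A and CYP17A1 were at 0.50, -0.18 and -0.49 without both animals.

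The theca markers tended lower in the granulosa libraries of prenatal T animals, with none called. Their sum was 37219 to 88364 in controls and 22319 to 44834 in prenatal T animals other than sheep 209. Of these markers 13 of 15 were below 0 (median -0.59, against -0.01 over all genes), 0 of them called. Beside them CYP17A1, whose granulosa level as a percentage of theca was above that of 12 of the 15 theca markers and below that of 3, was at -0.50 and not called. Whether theca cells in the granulosa libraries had a part in it was not tested. The granulosa markers went the other way there without sheep 209, with 15 of 15 above 0 (median 0.26) and 0 called. Above 0 were also 5 of 6 luteal, 4 of 6 epithelial and 3 of 6 oocyte markers. Of the endothelial markers 1 of 11 was above 0, of smooth muscle 2 of 9 and of immune 0 of 9. Whether cell make-up had a part in the values of the members was not tested.

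**Figure D4:**
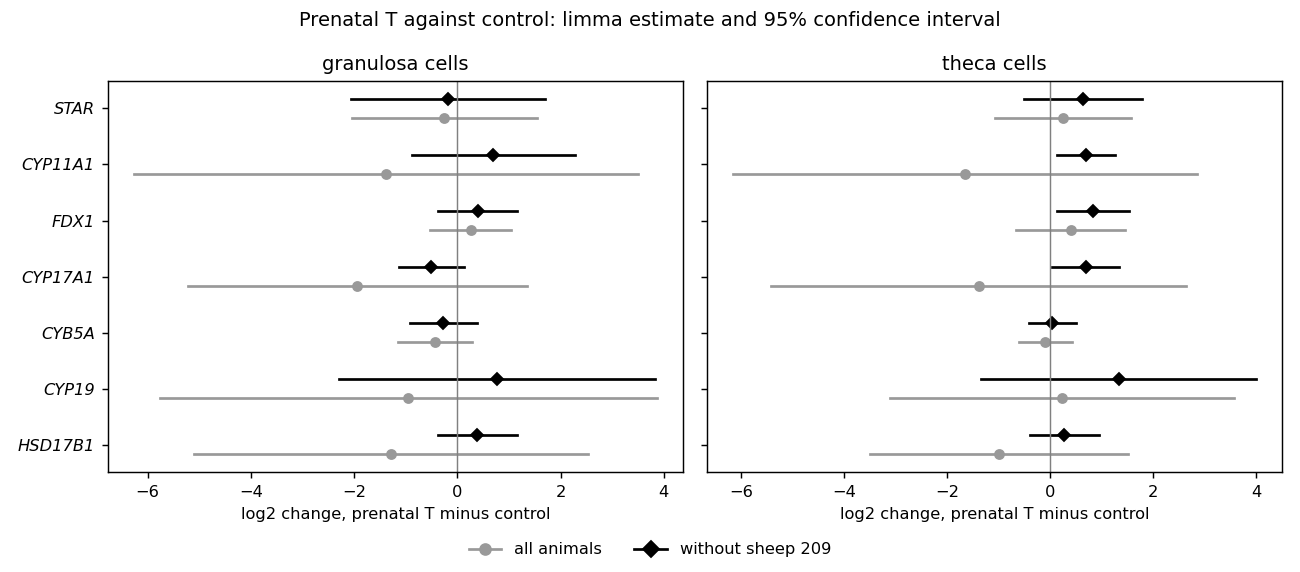
Log2 change, prenatal T minus control, of the 7 genes in granulosa (left) and theca cells (right), as limma estimates with 95% intervals for all animals (grey) and without sheep 209 (black). In theca cells all 7 black points are above 0, with intervals that exclude 0 before correction for CYP11A1, FDX1 and CYP17A1, and in granulosa cells all black intervals include 0.

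The difference of the prenatal T effect between layers was tested within animals. Limma called 0 of 16269 genes (0%; 758 at an unadjusted p under 0.05), edgeR 0 (794) and DESeq2 18, none of the 7 among them. CYP17A1 came nearest. Granulosa minus theca was -2.12 ± 0.48 (SD, n = 4) in controls and -3.19 ± 1.07 (SD, n = 4) in prenatal T animals other than sheep 209 on the log2 scale. The difference between these was -1.07 ± 0.45 (SE; 95% interval -2.07 to -0.07), with an unadjusted p of 0.039 and an adjusted p of 0.579 by limma.

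With all animals, sheep 209 having no CYP17A1 read in either layer, it was -0.43 ± 0.75. Leaving out sheep 276 with sheep 209 kept moved it to 0.02. The other 6 genes had 95% intervals that included 0 without sheep 209, from 0.17 ± 0.19 for HSD17B1 to -0.69 ± 0.64 for STAR. The lack of a call does not show that the layers responded alike.

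The other genes of the pathway were read from 4 lists, chosen with earlier results of these data known. Of the other steroid enzymes, 19 were tested between layers without sheep 209, and 6 were called higher and 5 lower in granulosa cells (median 0.02, against 0.02 over all genes; with sheep 209, 7 and 5 of 20). Over all genes 31.7% were called higher and 31.0% lower, and 28.6% and 28.0% with sheep 209. HSD3B1, which turns pregnenolone into progesterone, was 5.49-fold lower in granulosa cells (log2 -2.46 ± 0.27, SE, adjusted p = 7.92e-06, limma; -2.19 ± 0.34 with sheep 209). Its values ran from 65.7 to 1346 in granulosa and from 482 to 2512 in theca, with a single read in each layer of sheep 209, and sheep 315 was again the highest in both. HSD3B7, a related enzyme of bile acid synthesis, was at a log2 of -0.84 and PAPSS1 at -0.31, the latter not called with sheep 209 (-0.21, adjusted p = 0.123). PAPSS2 (1.34), which like PAPSS1 makes the sulfate donor, AKR1B1 (0.93), an aldose reductase, HSD17B7 (0.89) and SRD5A1 (0.34), a 5α-reductase, were higher in granulosa cells.

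Of 11 genes listed under electron supply, 8 were called higher and 2 lower in granulosa cells without sheep 209, and 7 and 1 with it. Their median without sheep 209 was 0.37, against 0.02 over all genes, of which 31.7% were called higher and 31.0% lower. FDX1 was called lower. The mitochondrial NADPH enzymes IDH2 (log2 1.27 ± 0.07, SE, and 1.0 ± 0.24 with sheep 209) and NNT (1.07 ± 0.06, and 1.01 ± 0.08) led, with IDH1 (0.59) and H6PD (0.54) after them. The progesterone receptor membrane components PGRMC1 (-0.31) and PGRMC2 (-0.23) were lower, PGRMC1 not called with sheep 209 (-0.21, adjusted p = 0.0944).

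Of 17 genes of cholesterol supply, 7 were called higher and 3 lower in granulosa cells without sheep 209 (median 0.12), and 6 and 3 with it, where over all genes 31.7% and 31.0% were without it. NCEH1 (1.02), which frees cholesterol from its esters, and HSPD1 (0.49), a mitochondrial chaperone, were among those higher. TSPO (-0.81), an outer mitochondrial membrane protein, and NPC2 (-0.52), which carries cholesterol out of lysosomes, were lower, in the direction of STAR.

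Among 26 regulators 11 were called higher and 4 lower without sheep 209 (median 0.18), and 6 and 4 with it. The shares over all genes were 31.7% and 31.0%, and 28.6% and 28.0% with it. FSHR, NR5A2, INHBA, FOXL2 and ESR2 of this list are also on the list of granulosa markers. The count of regulators higher in granulosa cells is therefore not independent of that choice. The gonadotropin receptors took opposite layers. FSHR was 5.80-fold higher in granulosa cells (log2 2.54 ± 0.17, SE, adjusted p = 1.28e-07, limma) and LHCGR 4.76-fold lower (-2.25 ± 0.35, adjusted p = 0.000156). With sheep 209 they were at 2.25 ± 0.29 and -2.0 ± 0.40, both called. The nuclear receptor NR5A2 (2.45), the activin subunit INHBA (1.94) and PRKAR2B (0.71), a regulatory subunit of protein kinase A, were also higher, and PDE4D (-2.04), which breaks down cyclic AMP, PRKACA (-0.61) and PRKACB (-0.35), the catalytic subunits of that kinase, lower. INHBA was not called with sheep 209 (1.26 ± 0.62, adjusted p = 0.102), and the other 7 regulators named were.

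**Figure D5:**
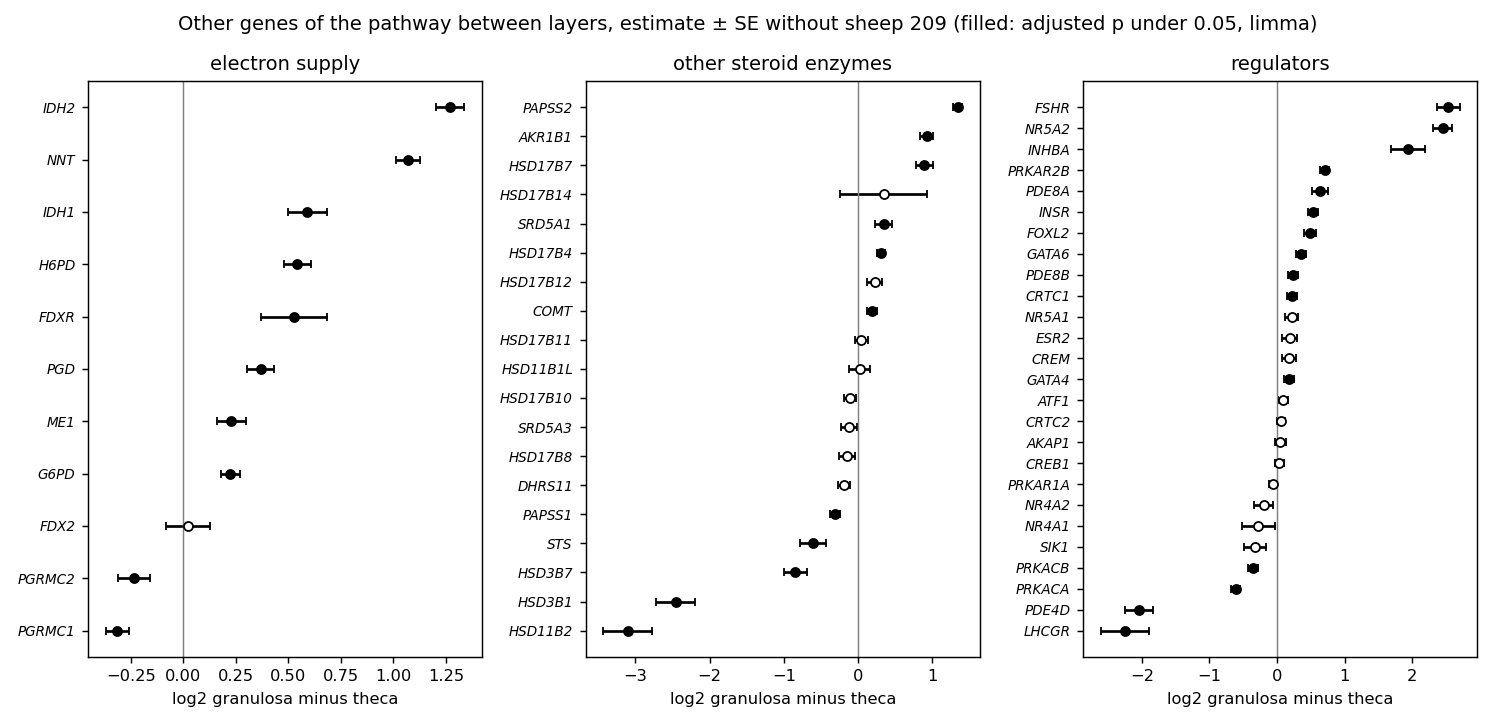
Log2 difference between layers, granulosa minus theca, ± SE without sheep 209 for the tested genes of electron supply, the other steroid enzymes and the regulators, filled where the adjusted p of limma was under 0.05. FSHR and NR5A2 are the highest and LHCGR and PDE4D the lowest of the regulators, and 8 of the 11 genes of electron supply are filled above 0.

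For prenatal T against control, 0 genes of these 4 lists were called in either layer or in the difference between layers, with or without sheep 209. Without sheep 209, the smallest p in theca cells was that of CRTC1, a coactivator of cyclic AMP response genes (-0.63 ± 0.14, SE, unadjusted p 0.001 and adjusted p = 0.371, limma). HSD3B1 in theca cells was 0.89 ± 0.35 (unadjusted p 0.0266, adjusted p = 0.389), and -0.97 ± 1.65 with sheep 209, so its sign turned with that animal as that of CYP11A1 did. Among the cholesterol genes SOAT1 (0.91 ± 0.31), which esterifies cholesterol, and NCEH1 (0.72 ± 0.24), which reverses this, came first in theca cells, both with an adjusted p of 0.371. In granulosa cells HSD17B10 (0.50 ± 0.18) and HSD17B12 (0.49 ± 0.17) had the smallest p of the enzymes, with an adjusted p of 0.704 for each.

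The genes whose levels followed each member most closely over animals were picked as the 3 of highest Pearson r of log2 values in its higher layer, out of 10450 genes over 9 theca or 9962 over 8 granulosa libraries, without sheep 209. High values are bound to occur among so many, and the libraries of a layer share both treatments, so these are descriptions. CYP11A1 in theca cells followed LHCGR, the receptor for luteinising hormone (r = 0.96, rank correlation 1), and the CYP17 entry about equally (0.96). Without the 2 animals farthest from the median r was 0.86 for each, and another of its 3 genes was then higher (0.92). STAR followed TIMP2 (0.96), ABHD6 (0.95) and SCARB1 (0.94), the receptor for high-density lipoprotein, with r of 0.91, 0.77 and 0.88 without sheep 276 and 315. CYP17A1 followed the CYP17 entry (0.98), and SEC23IP (0.94) was also among its 3, with r of 0.95 and 0.76 without sheep 139 and 276.

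FDX1 followed PGRMC1 in theca cells (r = 0.97), then TMX4 (0.94) and LSM12 (0.93), with r of 0.96, 0.84 and 0.74 without sheep 276 and 315. In granulosa cells HSD17B1 had the closest companions, L3MBTL2 (0.99), the cell cycle kinase CDK4 (0.99) and CCL25 (0.98), each at 0.96 or more without the farthest 2 animals. CYP19 followed MYO7A (0.96), CDHR5 (0.96) and GLDN (0.95), whose r fell to 0.83, 0.79 and 0.68 without sheep 244 and 315. CYB5A followed XRCC4 (0.96), ANKMY2 (0.94) and PDLIM2 (0.94), with r of 0.90 to 0.98 without the farthest 2 animals.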

How the data were processed

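Total RNA of microdissected granulosa and theca cells was sequenced in 19 libraries of 10 sheep. The deposited values are a signal per gene and library: per the values, the authors divided the gene count by a size factor of the library. Per the submitters' processing notes the tools were FastQC 0.11.5, MultiQC 0.9, the STAR aligner 2.6.0c, featureCounts, Subread 1.6.1 and DESeq2. Which genome build they used is not stated in the labels or the table, and positions were left out. Dividing each value by the smallest above 0 in its library gave whole reads for 100% of values (tolerance 1e-06).

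The filter on low values asked for 10 or more in 5 or more libraries. The main test was limma 3.58.1 (R 4.3.3; mean-variance trend, two-sided, adjusted p threshold 0.05, Benjamini-Hochberg over all genes tested) on log2 of the value plus a pseudocount of 1. Fold changes are on that scale, which understates the change of low genes. Treatment was tested within each layer, and layers and the difference of the effects with the animal as a fixed block. Recovered reads were also tested by DESeq2 1.42.0 and by edgeR 4.0.16 with its quasi-likelihood test. The fits were tested on simulated data. Other alternatives were a pseudocount of 10, no filter, TMM scaling, other blocks and leaving out animals. Leaving out sheep 209 with 315, and adding the CYP17 reads, were chosen after seeing the data. Setting sheep 209 apart also rested on its values in these data, those of the members among them.

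The numbers pair the layers, being sheep: deviations from group means of the 2 layers of 1 animal correlated at r = 0.42 to 0.80 across genes, highest with the own layer in 9 of 9 animals. None of 36 pairs of libraries of 1 group agreed within sampling noise (smallest chi-square per degree of freedom 25.9).

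The members and the lists of pathway genes and cell markers were chosen with earlier results of these data known. Named pathway genes were, between layers, up to 4 per list and direction with the largest change among those called with a mean of at least 100, without sheep 209, and, for prenatal T, up to 2 per list of smallest p. Some genes that this rule or the likeness rule picks are not reported here. Between layers without sheep 209, called higher and lower in granulosa cells were 0 and 11 of 11 endothelial, 0 and 8 of 9 smooth muscle, 0 and 5 of 9 immune, 5 and 0 of 6 oocyte, 5 and 2 of 9 epithelial and 2 and 3 of 6 luteal markers. The shares over all genes tested were 31.7% and 31.0%.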

Additional observations from a re-analysis of the deposited data

Results flagged for a closer look

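Of 28 groups of a gene, layer and treatment, 7 held a library far from the others, where chance gives about 1 in 20, and 6 of the 7 were sheep 209 of the prenatal T group. Its values were the lowest of 5 and apart from the rest for CYP11A1 (0 in granulosa and 0 in theca cells), CYP17A1 (0 and 0) and HSD17B1 (18.4 and 16.4). The remaining one was FDX1 in the granulosa cells of sheep 315, at 1376, the highest of 5.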

How the results depend on the processing

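Between layers, the 7 genes kept their direction under all alternatives run, and 7 of 7 stayed called except with a random replicate block (6) or no replicate block (2, with 5936 genes called over all). Without sheep 244 the genes called numbered 8372, and without sheep 209 10045. For prenatal T, no member was called under any alternative, and the count of genes was 0 except with DESeq2, which called 16 in granulosa cells, 7 in theca cells and 18 for the difference between layers (32, 58 and 32 without sheep 209), and with one model of both layers and a replicate block by animal, with 1 in granulosa cells and 4 without sheep 209. The log2 differences below are of uncalled genes and have a sign other than that of the all-animal limma value. The exception is the ranges from leaving out each animal in turn, which span both signs. Where sheep 209, at or near 0 for most of these genes, was left out, this is part of the alternative, and elsewhere the cause was not tested.

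In granulosa cells, edgeR and DESeq2 gave 0.81 and 0.79 for STAR, 0.86 and 0.83 for CYP11A1, 0.83 and 0.80 for CYP19 and 0.029 and 0.025 for HSD17B1. Without sheep 209 they gave 1.02 and 1.01, 1.18 and 1.17, 1.16 and 1.14, and 0.35 and 0.36. In theca cells they gave 0.43 and 0.43 for CYP11A1, 0.46 and 0.46 for CYP17A1 and -0.32 and -0.32 for CYP19, and without sheep 209 0.76 and 0.75 for CYP11A1, 0.79 and 0.79 for CYP17A1, 0.26 and 0.25 for HSD17B1 and 0.043 and 0.039 for CYB5A. For the difference between layers, edgeR gave 0.033 for CYP19, 0.0013 for HSD17B1 and -0.018 for FDX1, and without sheep 209 0.20, 0.15 and -0.29, where DESeq2 gave 0.18 for HSD17B1 and -0.27 for FDX1. FDX1 was also at -0.013 with TMM scaling.

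The replicate block by animal without sheep 209 gave 0.77, 0.97 and 0.41 for CYP11A1, CYP19 and HSD17B1 in granulosa cells, and 0.69, 0.69, 0.27 and 0.042 for CYP11A1, CYP17A1, HSD17B1 and CYB5A in theca cells. For FDX1 in the difference, no replicate block gave -0.14 and a random replicate block -0.045. Without sheep 209 and 315, CYP11A1 and HSD17B1 were at 0.065 and 0.50 in granulosa cells, CYP11A1, CYP17A1, HSD17B1 and CYB5A at 0.62, 0.66, 0.41 and 0.095 in theca cells, and CYP11A1, HSD17B1 and FDX1 at -0.43, 0.14 and -0.47 in the difference. With the CYP17 reads added and sheep 209 left out, CYP17A1 in theca cells was at 0.70.

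Leaving out each animal in turn gave, in granulosa cells, -2.37 to 0.70 for CYP11A1, -2.23 to 0.77 for CYP19, -0.064 to 0.39 for FDX1, -1.87 to 0.38 for HSD17B1 and -0.99 to 0.082 for STAR. In theca cells the ranges were -0.23 to 0.053 for CYB5A, -2.41 to 0.69 for CYP11A1, -2.14 to 0.69 for CYP17A1, -0.57 to 1.33 for CYP19, -1.49 to 0.27 for HSD17B1 and -0.22 to 0.63 for STAR. In the difference they were -1.07 to 0.020 for CYP17A1, -0.28 to 0.33 for FDX1, -0.41 to 0.17 for HSD17B1 and -0.69 to 0.24 for STAR. In theca libraries, at 14.1 to 18.1 M reads, CYP19 had values as low as 3.25, apart from 0 in sheep 209, so its low levels rest on few reads.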
